A study of Mus musculus with 8 samples.

Results

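The 10 genes described here control the step at which a cell leaves G1 and starts to copy its DNA. They are the Cip/Kip inhibitors Cdkn1a, Cdkn1b and Cdkn1c, the Ink4 inhibitors Cdkn2a, Cdkn2b and Cdkn2c, the D cyclins Ccnd1, Ccnd2 and Ccnd3, and the kinase Cdk4. They were chosen by name, and a probe set counted for a gene when the platform annotation gave it that symbol alone. By this rule all 10 genes were found, among 18193 genes measured, with 24 probe sets of 45037. The data are 8 Affymetrix Mouse Genome 430 2.0 arrays, hybridised with RNA from dorsal skin of B6D2/F1 mouse embryos at embryonic day 18.5. The GR-null group held 4 arrays (label numbers 5, 17, 25 and 26) from GR-/- embryos, which lack the glucocorticoid receptor. The wild-type group held 4 arrays (4, 6, 28 and 29) from GR+/+ embryos, and the labels describe the 2 genotypes as littermates delivered by caesarean section. The labels name no drug or hormone for either group, and no Cre or promoter that would limit the loss of the receptor to one cell type. The labels do not say whether each array came from a different embryo, so p-values measure the spread between these samples only.

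Cyclin-dependent kinases drive the cell cycle once a cyclin is bound. The D cyclins bind Cdk4 and its relative Cdk6, and the active complex phosphorylates the retinoblastoma protein, which then releases E2F factors that switch on genes of DNA replication. Ink4 proteins bind Cdk4 and Cdk6 directly and block the D cyclins, while Cip/Kip proteins bind whole cyclin and kinase complexes, above all those of Cdk2. In the epidermis, basal cells divide and stop dividing as they move upward, and Cip/Kip inhibitors are part of that exit. Glucocorticoids slow the growth of many cell types, and Cdkn1c and Cdkn1a are known as glucocorticoid-responsive genes in cultured cells.

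The values are log2 expression per probe set, as deposited after RMA (robust multi-array average). Each difference is GR-null minus wild-type in log2 units from a limma fit over all probe sets, so 1 unit is a doubling. A gene was read at its brightest probe set, and adjusted p is the Benjamini-Hochberg value over all genes, with a threshold of 0.05. Levels of different probe sets cannot be set against each other, so each is compared between genotypes only. Nr3c1, the gene of the receptor, had differences of -0.84, -1.86 and -2.70 log2 at its 3 brightest probe sets of 6, with no overlap between genotypes there. Its 3 dimmer probe sets gave 0.27, 0.04 and 0.35, none past the threshold. Array medians lay between 6.46 and 6.52. RNA of skeletal muscle, a tissue under the skin, varied: the mean of 33 muscle markers lay between 9.90 and 10.79 log2 in GR-null arrays and between 10.77 and 10.88 in wild-type arrays, and GR-null 17 alone of its group was at the wild-type level. Xist was high in GR-null 17 and wild-type 6 and low in the other 6 arrays. Y-linked genes averaged 3.83 log2 in GR-null 17 and in wild-type 6, and 8.29 to 8.99 in the other 6. By these readings GR-null 17 and wild-type 6 were female samples.

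Of the 10 genes, 1 passed the threshold: Cdkn1c was lower in GR-null skin. Over all genes 539 of 18193, or 2.96%, passed it, with 1.40% higher and 1.56% lower. A count of 1 among 10 is too small to set the group apart from this background. The other 9 genes had estimates from -0.25 to 0.64, of which Cdkn2b and Cdk4 were the largest, both upward. At an unadjusted p below 0.05 there were 4 of the 10 (Cdkn1c, Cdkn2b, Cdk4 and Ccnd2), against 21.6% of all genes. The values of the genotypes did not overlap for 2 of the 10, Cdkn1c and Cdkn2b, against 13.0% of all genes. The median difference was 0.03 over the 10 genes and -0.00 over all genes.

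**Figure D1:**
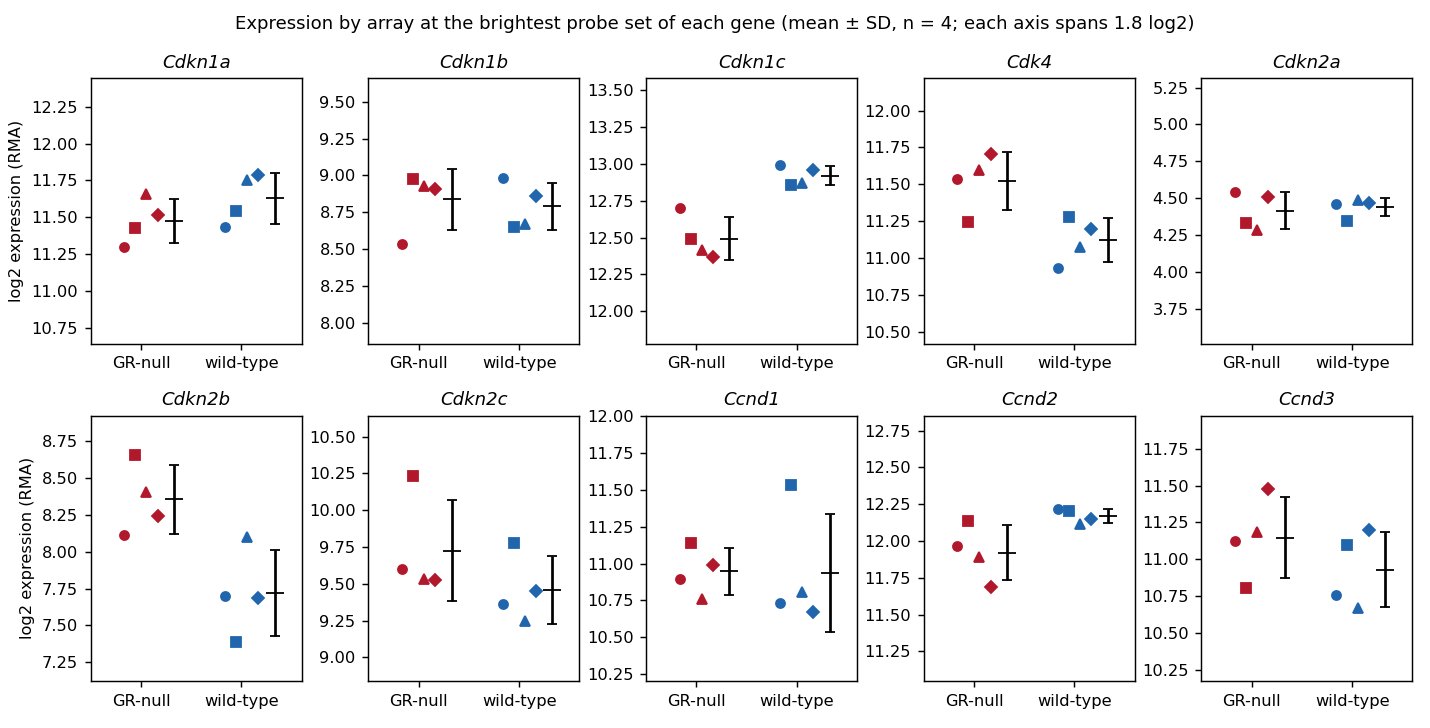
Log2 expression of the 10 genes at their brightest probe sets, GR-null arrays in red (circle 5, square 17, triangle 25, diamond 26) left of wild-type arrays in blue (circle 4, square 6, triangle 28, diamond 29), with mean ± SD in black (n = 4 per genotype). Cdkn1c is lower and Cdkn2b higher in all 4 GR-null arrays than in any wild-type array, and the genotypes overlap for the other 8 genes.

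Cdkn1c encodes p57, an inhibitor of the Cip/Kip family that holds cells out of the cycle as they differentiate, and in the mouse it is expressed from the maternal copy of an imprinted region. It read 12.70, 12.49, 12.42 and 12.37 log2 in GR-null 5, 17, 25 and 26, and 12.99, 12.86, 12.87 and 12.96 in wild-type 4, 6, 28 and 29. Every GR-null array lay below every wild-type array, with GR-null 5 closest to them. Cdkn1c had a single probe set, so no second reading of the gene was available. The mean was 12.49 ± 0.14 in GR-null skin and 12.92 ± 0.06 in wild-type skin (SD, n = 4 each). Cdkn1c therefore fell by 0.43 ± 0.09 log2 (SE, 95% interval -0.63 to -0.23), a 1.34-fold difference, with adjusted p = 0.0408 by limma. An exact permutation test of the same 8 values gave p = 0.0286, the smallest that 4 against 4 arrays allow. In a whole-skin sample, fewer cells that express the gene and less RNA in each such cell cannot be told apart.

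The estimate for Cdkn1c kept its size when single arrays were left out, between -0.49 and -0.38 log2, but the call did not. Adjusted p passed the threshold without GR-null 5 (0.041) and without GR-null 17 (0.036), and missed it without GR-null 25 (0.134), GR-null 26 (0.106), wild-type 4 (0.0845), wild-type 6 (0.0640), wild-type 28 (0.0957) or wild-type 29 (0.112). Muscle RNA moved with genotype too, and Cdkn1c is also made by developing muscle. In GR-null 17, whose muscle markers were at the wild-type level, Cdkn1c read 12.49 against a lowest wild-type value of 12.86. That is a single array, which also differed from the rest of its group in its high Xist. With the muscle mean as a covariate the difference was -0.48 and adjusted p 0.252. Muscle level went with genotype in every GR-null array but GR-null 17. Here and in the fits below, this covariate can therefore hardly separate muscle from genotype. What part muscle plays, and why calls are lost under the covariate, was not tested.

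The other Cip/Kip genes did not pass the threshold. Cdkn1a encodes p21, which p53 induces after DNA damage and which also rises as keratinocytes leave the cycle. Its brightest probe set gave 11.30, 11.43, 11.66 and 11.51 log2 in GR-null 5, 17, 25 and 26, and 11.43, 11.54, 11.75 and 11.79 in wild-type 4, 6, 28 and 29. The groups overlapped, and the difference was -0.15 ± 0.11 (SE, 95% interval -0.40 to 0.10, adjusted p = 0.483). Its second probe set varied far more within each genotype, from 9.24 to 10.06 in GR-null arrays and from 8.40 to 9.92 in wild-type arrays, and gave 0.23 ± 0.33. The probe sets thus had opposite signs, each with an interval that held 0.

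Cdkn1b encodes p27, which keeps resting cells out of the cycle and is removed by the ubiquitin ligase subunit Skp2. It read 8.53, 8.98, 8.93 and 8.91 log2 in GR-null 5, 17, 25 and 26, and 8.98, 8.65, 8.67 and 8.86 in wild-type 4, 6, 28 and 29. The difference was 0.05 ± 0.12 (SE, 95% interval -0.23 to 0.32, adjusted p = 0.875). A dim second probe set, brighter than only 16.3% of all probe sets, gave 0.35 ± 0.14 with adjusted p = 0.181 over all probe sets, and the groups overlapped there by 1 wild-type array.

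Whether the 3 Cip/Kip genes differed in response was tested on their ratios within each array. The log2 ratio of Cdkn1b over Cdkn1c averaged -3.66 ± 0.34 in GR-null arrays and -4.13 ± 0.10 in wild-type arrays (SD, n = 4 each), and it was higher in 3 of the 4 GR-null arrays than in any wild-type array. Its difference of 0.47 had p = 0.0857 by an exact two-sided permutation test. For Cdkn1a over Cdkn1c the difference was 0.27 (exact p = 0.171), and for Cdkn1a over Cdkn1b it was -0.20 (exact p = 0.229). Over the 9 pairs within the 3 families, adjusted p was 0.343 for each of these. A lone pair at the smallest exact p of 0.0286 would have an adjusted p of 0.257, and 6 of the 9 would have to reach that p for any to pass, so this test could not show a single ratio to differ and says nothing on whether Cdkn1c differed from its relatives.

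**Figure D2:**
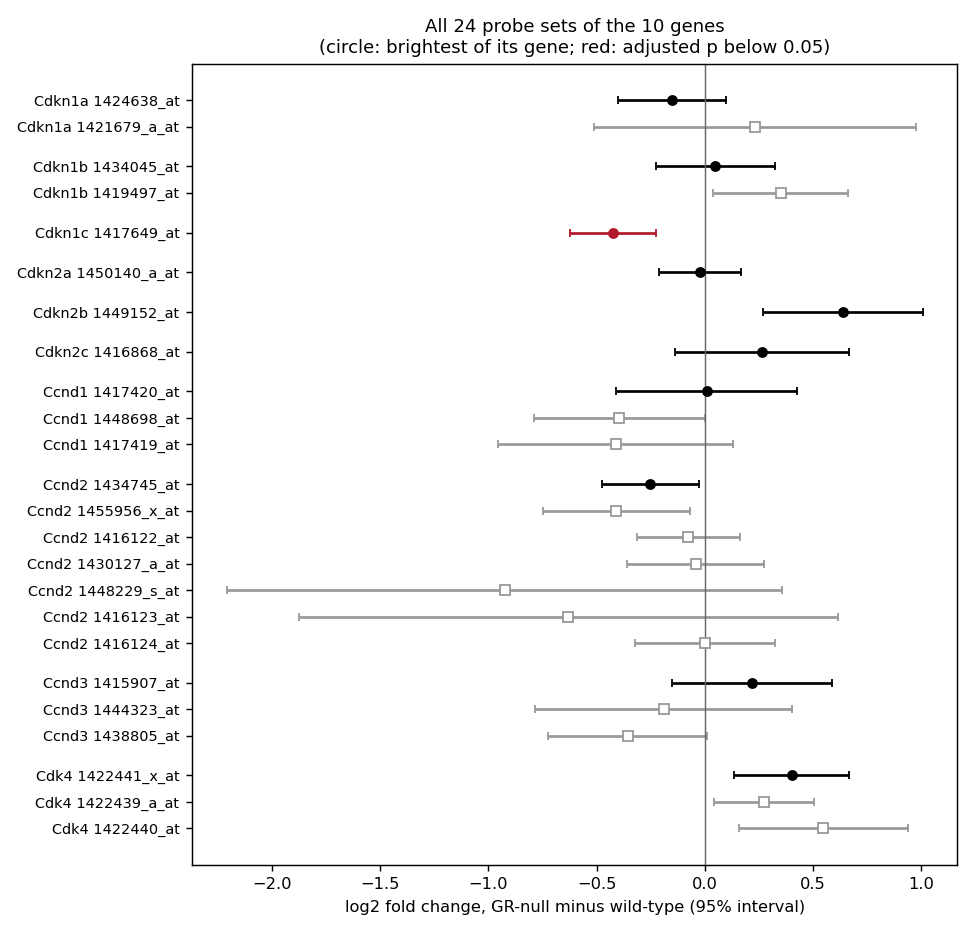
Log2 fold change, GR-null minus wild-type, with its 95% interval for each of the 24 probe sets, where circles are the brightest probe set of a gene and red is adjusted p below 0.05. The Cdkn1c probe set is the one past the threshold, all 3 of Cdk4 lie above 0, and 2 of Ccnd2 have intervals far wider than the rest.

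Among the Ink4 genes, Cdkn2b had the largest difference of the 10 genes. It encodes p15, an inhibitor of Cdk4 and Cdk6 that TGF-beta induces in epithelial cells. Cdkn2b read 8.11, 8.66, 8.41 and 8.24 log2 in GR-null 5, 17, 25 and 26, and 7.70, 7.39, 8.10 and 7.69 in wild-type 4, 6, 28 and 29. The groups did not overlap, but GR-null 5 and wild-type 28 were almost equal. Cdkn2b too had a single probe set. The difference was 0.64 ± 0.16 (SE, 95% interval 0.27 to 1.01, 1.56-fold, n = 4 per genotype) with adjusted p = 0.0688 by limma, past the threshold in neither the table of genes nor that of probe sets (0.0628). The exact permutation p was 0.0286, as for Cdkn1c. Over all probe sets Cdkn2b passed it when only those above the median level were tested (adjusted p = 0.0491) and with array quality weights (0.0460). Its spread was 0.23 in GR-null and 0.29 in wild-type arrays (SD), against 0.14 and 0.06 for Cdkn1c. With the muscle covariate the difference was 0.95 with adjusted p = 0.156.

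Cdkn2a encodes the inhibitor p16 and, from another reading frame, p19ARF, which stabilises p53. Its single probe set was dim, brighter than only 18.8% of all probe sets. It read 4.54, 4.33, 4.28 and 4.50 log2 in GR-null 5, 17, 25 and 26, and 4.46, 4.35, 4.48 and 4.47 in wild-type 4, 6, 28 and 29. The groups overlapped, with a difference of -0.02 ± 0.08 (SE, adjusted p = 0.916), and at this brightness RMA can hide a change. The probe set cannot say which of the products was measured.

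Cdkn2c encodes p18, the Ink4 inhibitor most typical of embryonic tissue. It read 9.60, 10.23, 9.53 and 9.53 log2 in GR-null 5, 17, 25 and 26, and 9.36, 9.78, 9.25 and 9.45 in wild-type 4, 6, 28 and 29. GR-null 17 and wild-type 6, the arrays with high Xist, were the highest of their groups. The difference was 0.26 ± 0.18 (SE, adjusted p = 0.443), and 0.09 without GR-null 17. With the muscle mean as a covariate it was 0.73 with adjusted p = 0.210. The log2 ratio of Cdkn2b over Cdkn2c was 0.37 higher in GR-null arrays (adjusted p = 0.343 over the 9 pairs, exact permutation test), and the ratios with the dim Cdkn2a are not described.

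Cdkn2a and Cdkn2b are next to each other in the order of protein-coding genes in RefSeq, between Mtap and Dmrta1. Mtap, an enzyme of methionine salvage, had a difference of -0.15 ± 0.07 (adjusted p = 0.258), and Dmrta1, a DM domain transcription factor gene, one of -0.16 ± 0.09, also not past the threshold. The estimate for Cdkn2b was thus not accompanied by a similar one at Mtap or Dmrta1. Cdkn2a, directly beside it, was read at a dim probe set where RMA can hide a change.

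Cdkn2b had the largest upward estimate, so its promoter is shown, followed by that of Cdk4, which had the second largest. RefSeq promoters, 250 bases before and 50 after a transcript start, were matched for 7 of the 10 genes, with 11 starts in all. Cdkn1c, Ccnd1 and Ccnd2 had no entry, so their promoters were not searched for any motif. The Cdkn2b promoter lies at chr4:89310983-89311282 (GRCm38.p6, minus strand), and capitals mark GGGCGG, the core of the GC box bound by Sp1-type factors. The Cdk4 promoter lies at chr10:127063285-127063584 (GRCm38.p6, plus strand), and capitals mark CACGTG, the E-box that Myc and related factors can bind.
Cdkn2b: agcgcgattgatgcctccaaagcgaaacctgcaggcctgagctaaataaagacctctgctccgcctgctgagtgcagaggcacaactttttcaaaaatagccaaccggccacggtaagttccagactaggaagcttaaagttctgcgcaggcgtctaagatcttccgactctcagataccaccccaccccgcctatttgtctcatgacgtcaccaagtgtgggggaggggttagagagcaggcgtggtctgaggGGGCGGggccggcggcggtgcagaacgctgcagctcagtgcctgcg
Cdk4: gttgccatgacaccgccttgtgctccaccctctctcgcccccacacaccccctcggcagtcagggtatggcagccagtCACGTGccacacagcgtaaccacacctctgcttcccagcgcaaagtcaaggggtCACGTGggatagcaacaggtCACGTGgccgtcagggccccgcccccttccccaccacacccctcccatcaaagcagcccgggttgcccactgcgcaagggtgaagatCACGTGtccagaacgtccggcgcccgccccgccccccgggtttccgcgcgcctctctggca
The search covered both strands, and CACGTG reads the same on each, so its matches were counted once. The Cdk4 promoter held CACGTG 4 times, while 7.15% of all 32851 RefSeq promoters of this length held it at least once and 0.0244% at least 4 times. GGGCGG was in 35.7% of all promoters and in 9 of the 11 of these genes. The hexamer AGAACA, one arm of the palindrome that the glucocorticoid receptor prefers, was in 18.97% of all promoters and in 1 of the 11, that of a Cdkn2c transcript. These are matches of letters in a short window.

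Cdk4 encodes the kinase that the D cyclins activate and the Ink4 proteins block. Its brightest probe set gave 11.54, 11.25, 11.60 and 11.71 log2 in GR-null 5, 17, 25 and 26, and 10.93, 11.28, 11.07 and 11.20 in wild-type 4, 6, 28 and 29. GR-null 17 lay just below the highest wild-type array, and the other 3 GR-null arrays lay above all wild-type arrays. The difference was 0.40 ± 0.12 (SE, 95% interval 0.13 to 0.67, 1.32-fold) with adjusted p = 0.0965 by limma. That probe set ends in _x_at and can take up related transcripts.

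The other probe sets of Cdk4 gave estimates of the same sign. They differed by 0.27 ± 0.10 and 0.55 ± 0.17 log2 (SE, n = 4 per genotype), with adjusted p of 0.156 and 0.106 over all probe sets by limma, and at the first of them the groups did not overlap. Without GR-null 17 the Cdk4 difference was 0.49 with adjusted p = 0.0253. With the muscle mean as a covariate it was 0.18 with adjusted p = 0.736. That covariate can hardly separate muscle from genotype in these arrays, and what part muscle plays was not tested.

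The D cyclins did not pass the threshold at any of their 13 probe sets. Ccnd2, induced by growth signals in many tissues, had 7 of them. The brightest gave 11.97, 12.13, 11.89 and 11.68 log2 in GR-null 5, 17, 25 and 26, and 12.22, 12.20, 12.12 and 12.15 in wild-type 4, 6, 28 and 29. GR-null 17 lay within the wild-type range and the other 3 below it. The difference was -0.25 ± 0.10 (SE, 95% interval -0.47 to -0.03, adjusted p = 0.183), and -0.08 with the muscle covariate (adjusted p = 0.882). A nearly equally bright probe set gave -0.41 ± 0.15 (adjusted p = 0.152 over all probe sets), with every GR-null array below every wild-type array.

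GR-null 26 was the lowest of all arrays at every Ccnd2 probe set but the dimmest, and by far the most at 2 of them. At the fifth brightest probe set GR-null 26 read 7.17 log2, against 9.81, 10.31 and 9.27 in GR-null 5, 17 and 25 and 9.88 to 10.21 in wild-type arrays. At the sixth it read 5.29, against 7.80, 8.30 and 7.40 in GR-null 5, 17 and 25 and 7.49 to 8.03 in wild-type arrays. GR-null 26 minus the wild-type mean was thus -2.90 and -2.54 log2 at these probe sets, but -0.49, -0.88, -0.35 and -0.33 at the 4 brighter ones and 0.03 at the dimmest. Without GR-null 26 the estimates at these 2 probe sets were -0.27 and 0.00 log2, in place of -0.93 and -0.63 with all arrays. At the brightest probe set the estimate was then -0.17 in place of -0.25, and at the second brightest -0.25 in place of -0.41. None of these estimates passed the threshold.

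**Figure D3:**
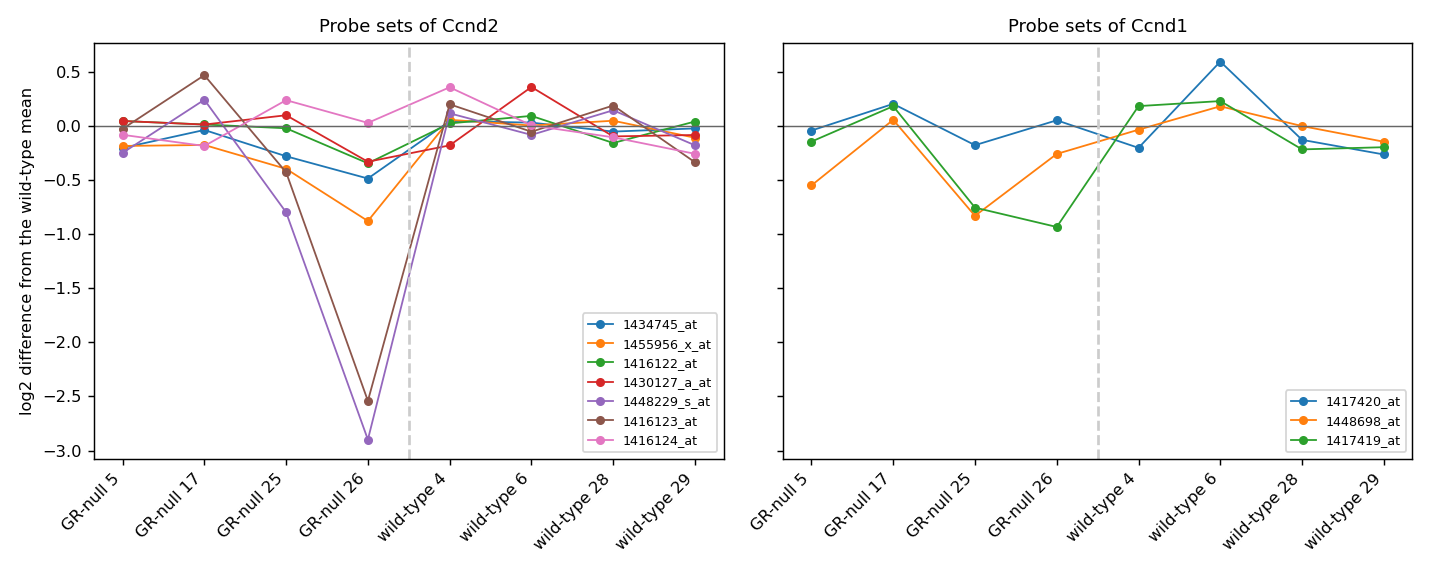
Difference of each array from the wild-type mean, in log2 units, for the 7 probe sets of Ccnd2 (left) and the 3 of Ccnd1 (right), with GR-null arrays left of the dashed line and wild-type arrays right of it. GR-null 26 lies at -2.90 and -2.54 for 2 Ccnd2 probe sets and between -0.88 and 0.03 for the other 5.

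Ccnd1, a target of Wnt and growth factor signalling, had 3 probe sets that disagreed. The brightest gave 10.90, 11.14, 10.76 and 10.99 log2 in GR-null 5, 17, 25 and 26, and 10.74, 11.53, 10.81 and 10.67 in wild-type 4, 6, 28 and 29. Wild-type 6 was the highest of all arrays there, and the difference was 0.01 ± 0.19 (SE, 95% interval -0.41 to 0.43, adjusted p = 0.988). Without wild-type 6 it was 0.21 (adjusted p = 0.304). The second brightest probe set gave -0.40 ± 0.18 and the third -0.41 ± 0.24, with adjusted p of 0.228 and 0.367 over all probe sets by limma. At the second, GR-null 5, 25 and 26 lay below all wild-type arrays, and without GR-null 17 its difference was -0.55 with adjusted p = 0.0450.

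Ccnd3, the D cyclin most used by differentiated cells and muscle, read 11.12, 10.81, 11.18 and 11.48 log2 in GR-null 5, 17, 25 and 26, and 10.76, 11.09, 10.67 and 11.20 in wild-type 4, 6, 28 and 29. The groups overlapped, with a difference of 0.22 ± 0.16 (SE, 95% interval -0.15 to 0.59, adjusted p = 0.503). The 2 dimmer probe sets gave -0.19 ± 0.26 and -0.36 ± 0.16, of the opposite sign. Within arrays, the ratio of Ccnd2 over Ccnd3 was 0.47 log2 lower in GR-null skin (exact permutation p = 0.114), and Ccnd1 over Ccnd2 and Ccnd1 over Ccnd3 had exact p of 0.286 and 0.457. None of the 9 ratios within families had an unadjusted exact p below 0.05, and after adjustment the design could hardly pass any.

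Over all 24 probe sets of the 10 genes, 1 passed the threshold, against 3.85% of all probe sets. The groups did not overlap at 5 of the 24, against 12.6% of all probe sets: those of Cdkn1c and Cdkn2b, 1 of Cdk4, 1 of Ccnd2 and 1 of Ccnd3. An unadjusted p below 0.05 was reached by 8 of the 24, against 21.9% of all. Estimates were above 0 for 10 probe sets and below 0 for 14. The median residual SD was 0.18 log2 over the 10 genes and 0.15 over all genes, so the spread of these genes was somewhat larger at the median.

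Other genes of the pathway were taken from lists, read at the gene level. Over all genes, 1.40% rose and 1.56% fell past the threshold, and 21.6% had an unadjusted p below 0.05 by limma. The list counts below are to be read against these shares, and no set test was run. In the list of G1/S cyclins and kinases, 2 of 11 measured members rose and 0 fell, and both belong to the trimeric kinase that activates Cdk4 and other cyclin-dependent kinases. Cdk7, its catalytic subunit, read 9.58, 9.41, 9.77 and 9.85 log2 in GR-null 5, 17, 25 and 26, against 9.12, 9.22, 9.14 and 9.11 in wild-type 4, 6, 28 and 29. It rose by 0.50 ± 0.10 (SE, adjusted p = 0.0402). Mnat1, the assembly factor of that kinase, rose by 0.44 ± 0.07 (adjusted p = 0.0183), from arrays that did not overlap either. Its cyclin, Ccnh, picked out with its values known, had a difference of -0.04 ± 0.15 (adjusted p = 0.914). The count of rises was 0 with the muscle covariate and 0 without GR-null 5, 25 or 26 or wild-type 28 or 29, 1 without wild-type 4 or 6, and 2 without GR-null 17.

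Among pocket proteins and E2F factors, the partners that the D cyclin kinases act on, 0 of 13 passed the threshold by limma, with 3 higher and 1 lower at an unadjusted p below 0.05. The smallest p was that of Rbl2 (p130), the pocket protein of resting cells, at 0.42 ± 0.11 (SE, adjusted p = 0.0659). Of 17 DNA replication genes, which E2F factors switch on, 0 passed it, with 2 higher and 1 lower at an unadjusted p below 0.05. Pcna, the sliding clamp of DNA polymerase, came nearest at 0.42 ± 0.15 (adjusted p = 0.142). The median difference was 0.02 in the first list and -0.02 in the second, against -0.00 over all genes.

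Of 17 mitosis genes, 1 rose and 0 fell: the mitotic kinesin Kif20a by 0.83 ± 0.10 log2 (SE, adjusted p = 0.0078). The median was 0.18, and the estimates were above 0 for 13 of the 17. At an unadjusted p below 0.05 by limma, 7 were higher and 0 lower, against 21.6% of all genes in either direction. Averaged over these genes, the level lay between 9.98 and 10.22 log2 in GR-null arrays and between 9.86 and 10.03 in wild-type arrays, overlapping at wild-type 6. The proliferation marker Mki67, picked out with its values known, had a difference of -0.31 ± 0.17 (adjusted p = 0.349). With the muscle covariate 0 of these genes passed the threshold, and without wild-type 6 the count was 2.

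**Figure D4:**
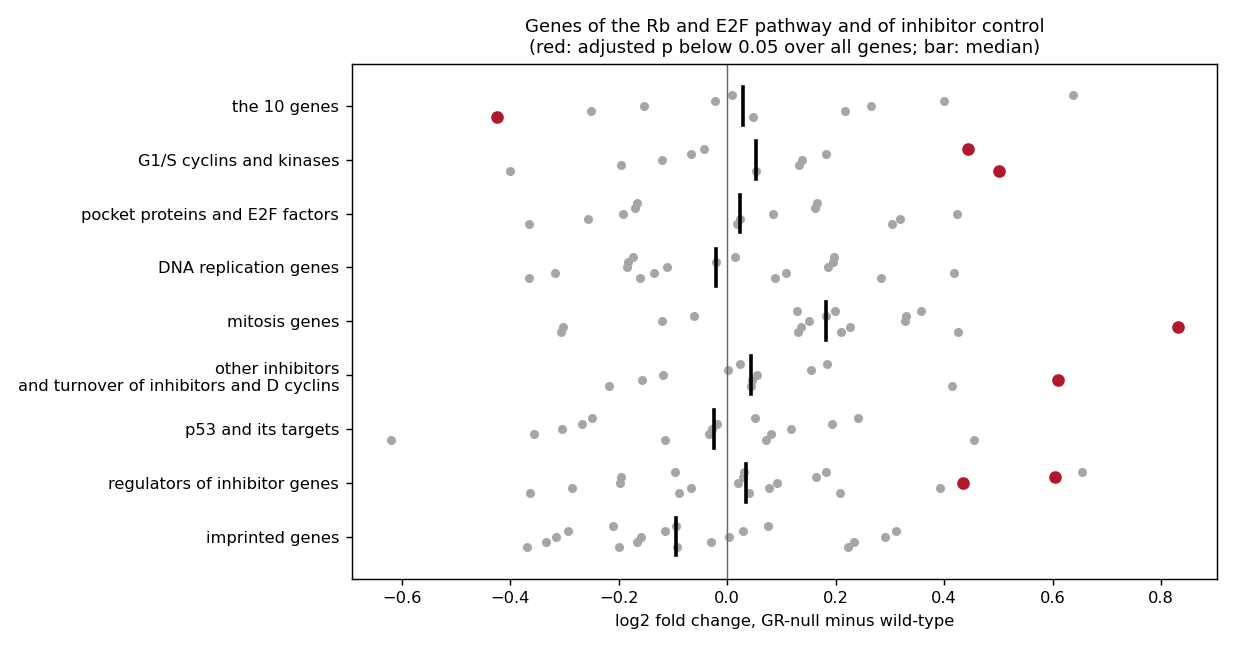
Log2 fold change, GR-null minus wild-type, of each gene in the 10-gene set and 8 related lists, read at the brightest probe set, with red for adjusted p below 0.05 over all genes and a bar at the median. Rises past the threshold are Cdk7 and Mnat1, Kif20a, Fzr1, and Trp63 and Bmi1, and the one fall is Cdkn1c.

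Proteins that remove inhibitors and D cyclins, together with other inhibitors, made a list of 12 in which 1 rose and 0 fell. That was Fzr1 (Cdh1), the activator of the anaphase-promoting complex in G1, which read 8.40, 8.23, 8.59 and 8.66 log2 in GR-null 5, 17, 25 and 26, against 7.92, 8.04, 7.67 and 7.82 in wild-type 4, 6, 28 and 29. Fzr1 rose by 0.61 ± 0.12 (SE, adjusted p = 0.0344). Skp2, which marks p27 for removal, had a difference of 0.00 ± 0.10 and the remaining Ink4 gene Cdkn2d one of 0.05 ± 0.15, both picked out with their values known. The count of rises in this list was 1 without wild-type 6, 2 without GR-null 17, and 0 without any one of the other 6 arrays or with the muscle covariate.

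Among 20 regulators of inhibitor genes 2 rose and 0 fell. Trp63, the master factor of stratified epithelia, represses Cdkn1a in keratinocytes, and it rose by 0.60 ± 0.12 log2 (SE, adjusted p = 0.0372). Bmi1, a Polycomb protein that represses the Cdkn2a locus, rose by 0.43 ± 0.09 (adjusted p = 0.0408), with 9.92 to 10.24 in GR-null and 9.51 to 9.74 in wild-type arrays. This count was 0 with the muscle covariate and 0 without GR-null 5, 25 or 26 or wild-type 4 or 29, 1 without wild-type 6 or 28, and 3 without GR-null 17. Of 16 genes of p53 and its targets 0 passed the threshold by limma, with 0 higher and 3 lower at an unadjusted p below 0.05. The smallest p there was that of the nuclease gene Aen at -0.62 ± 0.16 (adjusted p = 0.0683).

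Cdkn1c lies in an imprinted cluster, so imprinted genes were read as well. Of 19, 0 passed the threshold by limma, and the median was -0.10, with 1 higher and 3 lower at an unadjusted p below 0.05. Kcnq1, the potassium channel gene next to Cdkn1c, had the smallest p, with a difference of -0.37 ± 0.09 log2 (SE, adjusted p = 0.0684) and no overlap between genotypes: 5.90 to 6.18 in GR-null and 6.33 to 6.60 in wild-type arrays. On the other side of Cdkn1c, Slc22a18 and Phlda2 had differences of 0.23 ± 0.11 and 0.22 ± 0.10 (adjusted p of 0.260 and 0.249). The genes around Cdkn1c therefore had estimates of both signs, and of these Cdkn1c alone passed the threshold.

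Genes known to be induced by glucocorticoids gave larger changes: 7 of 15 fell and 0 rose. The count of falls was 3 without wild-type 28 or 29 or GR-null 5 or 25, 4 without GR-null 26, 5 without wild-type 4 or 6, and 9 without GR-null 17. Under the muscle covariate it was 2. Fkbp5, a co-chaperone of the receptor, fell by 2.11 ± 0.16 log2 (SE, adjusted p = 0.000922), Zbtb16 fell by 2.55 ± 0.20 and Per1 fell by 1.27 ± 0.21. These 3 were named for the largest changes of the list, in which 8 of 15 did not pass the threshold and 4 had estimates above 0. Cdkn1c fell by 0.43, less than these 3, and the median difference of the list was -0.85. Whether Cdkn1c differed from the list was not tested. Among skeletal muscle markers 5 of 33 fell and 0 rose, led by Mybpc1, Casq2 and Actn2, and the count of falls was 19 without GR-null 17 and 0 to 3 without any one of the other 7 arrays. Of the keratinocyte markers, 2 of 10 basal ones rose (Col17a1 and Lama3) and 1 of 10 suprabasal ones fell, the envelope protein gene Lor. The basal count was 0 without any one array but GR-null 17 and the suprabasal count 0 without any one array but GR-null 17 and wild-type 4, and both were 0 with the muscle covariate. The melanocyte markers Tyr and Pmel rose, 2 of 7, and the lymphatic marker Lyve1 was the 1 of 9 endothelial markers that fell. The endothelial count was 0 without wild-type 28 or 29 or GR-null 25 and with the muscle covariate, and 2 without GR-null 17, while the melanocyte count was 2 or 3 in these fits. No marker passed the threshold for fibroblasts (0 of 9), immune cells (0 of 10) or adipocytes (0 of 6). None did for Schwann cells (0 of 4) or erythroid cells (0 of 5). At an unadjusted p below 0.05 by limma, 2 fibroblast markers were higher and 1 lower, against 21.6% of all genes in either direction. For immune cells 3 were higher and 1 lower, for Schwann cells 2 and 2, and for adipocytes and erythroid cells 0. What part cell makeup plays in the differences of the 10 genes was not tested beyond the muscle covariate.

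The genes whose levels followed Cdkn1c most closely over the 8 arrays were Palm2, Sdr39u1 and Mmp23, with Pearson r of 0.990, 0.988 and 0.986. The most opposed were Extl1, Nup43 and Cops4, with r of -0.978, -0.974 and -0.974. These values hold the difference between genotypes, which all arrays of a group share. After centring on each genotype's mean, r was 0.939, 0.940 and 0.915 for the first 3 genes. They describe 8 arrays and were picked as the extremes of all genes measured.

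**Figure D5:**
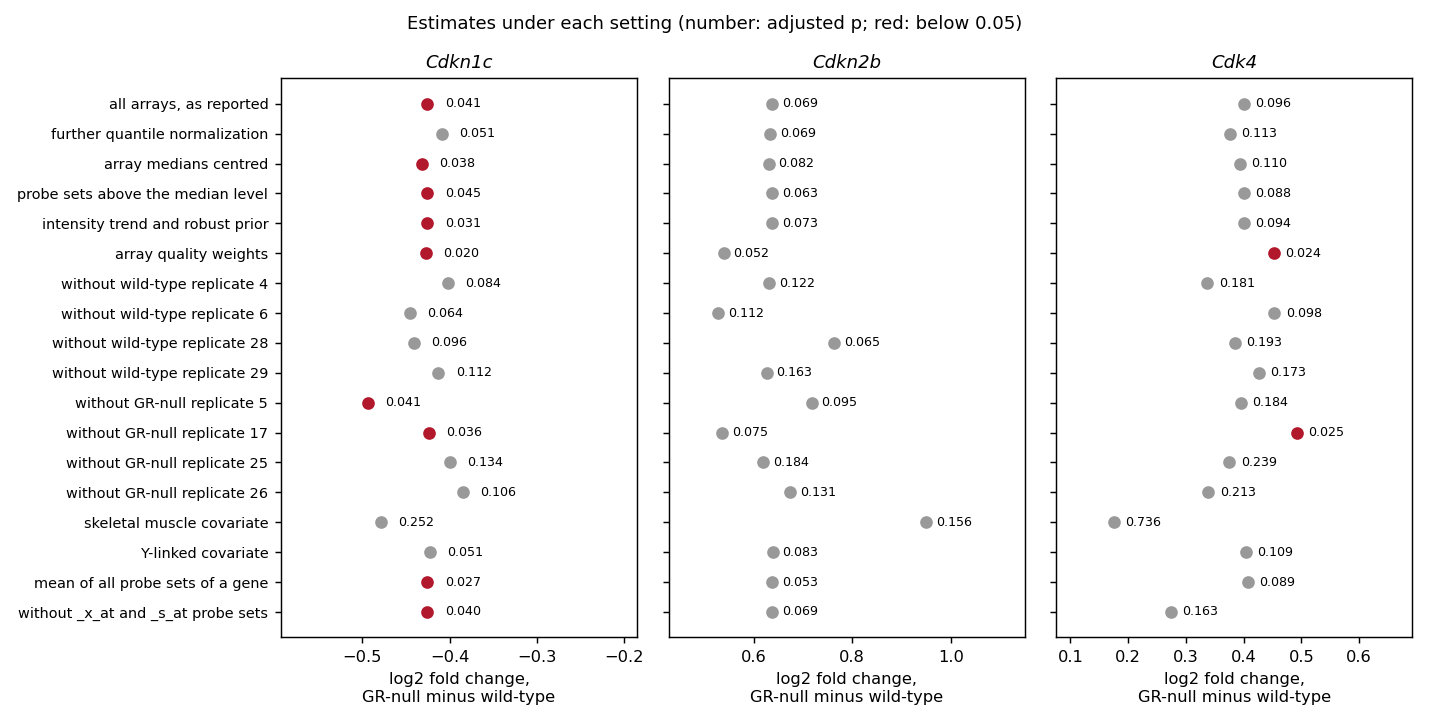
Log2 fold change, GR-null minus wild-type, of Cdkn1c, Cdkn2b and Cdk4 with all arrays and under each other setting, with the adjusted p beside each point and red for values below 0.05. Cdkn1c stays between -0.49 and -0.38 while its adjusted p crosses 0.05, Cdkn2b stays above 0.05 in every setting shown, and Cdk4 is past the threshold with array quality weights and without GR-null 17.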

How the data were processed

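Expression was measured on 8 single-colour arrays from dorsal skin, 4 GR-null and 4 wild-type, grouped by the titles in the labels. The deposited values are log2 expression per probe set made with RMA, per the submitters' processing notes, which state neither its version nor a filter. RMA gives arrays nearly equal distributions, so a shift shared by most genes would not show, and it compresses differences of dim probe sets. The number of arrays limits the precision.

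From 45101 probe sets 64 controls were left out. Of the 45037 tested, 34945 carried 1 symbol, 932 several and 9160 none. The 18193 genes were named through Entrez identifiers in RefSeq (GRCm38.p6) for 18032 of them and otherwise by the annotation. limma 3.58.1 in R 4.3.3 (lmFit, eBayes) was fitted to all probe sets with genotype as the single term, two-sided, with Benjamini-Hochberg adjustment. Ratios were tested by exact permutation (SciPy 1.17.1). The fit was tested on simulated data.

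The 10 genes and all lists were chosen with earlier results of these data known. Named genes were all members and Nr3c1, in each list up to 3 genes past the threshold with the largest change or else the one with the smallest p, and the 3 genes most and least like the member with the smallest p. Neighbours of members in gene order, and genes marked as picked out with their values known, were named outside this rule. The lists held G1/S cyclins and kinases, pocket proteins and E2F factors, DNA replication, mitosis, turnover, p53, regulators, imprinted genes, glucocorticoid-induced genes and 10 sets of cell type markers. Alternatives were 2 further normalizations, a filter on dim probe sets, another variance prior, array weights, leaving out each array, muscle and Y-linked covariates (3 Y-linked genes), stricter thresholds and other rules for the probe set of a gene.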

Additional observations from a re-analysis of the deposited data

Results flagged for a closer look

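Dixon's test divides the gap between an extreme value and the nearest other value by the range of the group. Among 48 groups of 4 values, from 24 probe sets in 2 genotypes, 4 held an array past its 95% critical value. Chance flags about 1 in 20 groups. GR-null 25 read 10.06 log2 for Cdkn1a at its second probe set, against 9.24 to 9.37 in the other GR-null arrays. GR-null 5 read 8.53 for Cdkn1b, against 8.91 to 8.98 in the others of its genotype. GR-null 17 read 10.23 for Cdkn2c, against 9.53 to 9.60. Wild-type 6 read 11.53 for Ccnd1, against 10.67 to 10.81 in the other wild-type arrays. The low Ccnd2 values of GR-null 26 did not pass this test.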

How the results depend on the processing

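No paired analysis was possible because the genotypes share no label number. The count of the 10 genes past the threshold was 1 with all arrays. It was 0 with a further quantile normalization, the muscle covariate, the Y-linked covariate, a threshold of 0.01 or a minimum of 1.5-fold, 2 with array quality weights, and 0 to 2 without 1 array. Their count of probe sets, 1 with all arrays, was 2 when only probe sets above the median level were tested, 4 with array quality weights, 0 with the muscle covariate, a threshold of 0.01 or a minimum of 1.5-fold, and 0 to 4 without 1 array. The count of all genes, 539, was 1944 with array quality weights, 108 with the muscle covariate, 46 at 0.01, 297 with the 1.5-fold minimum, 884 with the mean of a gene's probe sets, and 79 to 1640 without 1 array, the highest without GR-null 17 and the lowest without GR-null 25. Cdkn1c kept its direction in 20 of 20 alternatives and lost its call in 11, among them the further quantile normalization (adjusted p = 0.0509) and the Y-linked covariate (0.0507). Estimates of genes not past the threshold changed sign without a call. Cdkn1a was 0.040, Ccnd1 -0.27 and Ccnd3 -0.11 with the mean of all probe sets. Ccnd1 was -0.023 with a further quantile normalization and -0.021 with the Y-linked covariate, and Ccnd3 was -0.033 with the muscle covariate. That covariate took Cdkn1b to 0.25, Cdkn2a to -0.14, Cdkn2c to 0.73 and Ccnd1 to 0.15, none past the threshold. Without 1 array Ccnd1 lay between -0.079 and 0.21, Cdkn1b between -0.00011 and 0.15, and Cdkn2a between -0.065 and 0.020. The causes were not tested. For the ratios within families, 2 rules for the probe set of a gene, added after seeing the data, left 0 of 9 past the threshold, which says nothing on stability, since a lone pair cannot go below an adjusted p of 0.257. Leaving out 1 array was not run for them. Dim probe sets, such as that of Cdkn2a, limit what can be seen.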
